A study of Homo sapiens with 6 samples.

Results

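Some array probe sets cannot be assigned to a single gene. In these data they were the probe sets, array controls left out, whose Entrez Gene field in the authors' deposited table held at least 2 identifiers, and 1994 of the 49395 probe sets met that rule, which used no measured value. They are called shared probe sets here, and a probe set with exactly 1 identifier is called a gene's own probe set. The cells were U251, a human glioma line, carrying a lentiviral short hairpin RNA against CPVL (shCPVL, 3 arrays), and they were set against U251 cells carrying a negative control hairpin (shCtrl, 3 arrays), so all 6 arrays came from virus-exposed cells with a hairpin. A short hairpin RNA directs the degradation of a matching transcript, and CPVL encodes a serine carboxypeptidase. Nothing in the labels tells if the 3 arrays of a group stem from different cultures or clones, nor when after infection the RNA was taken, and p-values therefore cover array-to-array spread that could be technical.

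A gene array measures an RNA by short probes, and probes that match more than 1 gene report the sum of what those genes give. Paralogues arise by gene duplication and can stay nearly identical in sequence. Processed pseudogenes are copied back into the genome from a parent's mRNA and keep its sequence, while read-through transcripts run from a gene into its neighbour and share exons with both. Small nucleolar RNAs are mostly cut out of the introns of host genes, so a probe set on such a locus may carry the names of host and passenger. On this platform the endings s_at and x_at of a probe set name mark probes that match several transcripts or may cross-hybridise.

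The start regions of 6 genes whose shared probe sets rose are shown for a motif, OAS3 and TRIM34, or for the likeness of genes that share a probe set, HLA-B with HLA-C and H2AC18 with H2AC19 (RefSeq, GRCh38.p14, 250 bases before to 50 bases after each annotated start, printed 5′ to 3′ on the gene's strand). OAS3 and TRIM34 belong to the shared probe sets with the largest rises among interferon-stimulated genes, and capitals mark each GAAA followed by any 2 bases and another GAAA, on either strand, a core of the element bound by interferon-activated factors. The OAS3 window (chr12:112938224-112938523, plus strand) held 2 matches, 143 and 12 bases before the start, and the TRIM34 window (chr11:5624751-5625050, plus strand) held 1, 90 bases before it.
OAS3: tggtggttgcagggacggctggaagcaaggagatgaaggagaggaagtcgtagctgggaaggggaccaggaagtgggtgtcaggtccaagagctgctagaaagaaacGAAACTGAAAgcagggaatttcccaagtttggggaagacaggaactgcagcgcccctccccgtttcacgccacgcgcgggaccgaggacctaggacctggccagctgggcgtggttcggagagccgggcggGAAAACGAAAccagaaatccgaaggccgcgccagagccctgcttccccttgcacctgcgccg
TRIM34: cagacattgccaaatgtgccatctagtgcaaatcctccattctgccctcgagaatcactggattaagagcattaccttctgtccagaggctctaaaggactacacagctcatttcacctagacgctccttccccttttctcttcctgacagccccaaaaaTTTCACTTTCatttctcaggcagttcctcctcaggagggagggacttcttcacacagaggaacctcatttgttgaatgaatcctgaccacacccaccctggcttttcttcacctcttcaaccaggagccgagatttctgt
HLA-B (chr6:31357130-31357429, minus strand) and HLA-C (chr6:31272043-31272342, minus strand) share a probe set that rose, and capitals mark the bases that differ or have no partner between the aligned windows, 31 in each at an identity of 88.5%.
HLA-B: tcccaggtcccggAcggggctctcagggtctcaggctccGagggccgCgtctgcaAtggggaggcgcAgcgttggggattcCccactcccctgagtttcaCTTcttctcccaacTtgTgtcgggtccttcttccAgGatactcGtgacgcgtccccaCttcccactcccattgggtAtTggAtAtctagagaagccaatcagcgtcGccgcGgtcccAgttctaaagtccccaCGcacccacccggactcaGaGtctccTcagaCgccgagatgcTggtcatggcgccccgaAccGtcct
HLA-C: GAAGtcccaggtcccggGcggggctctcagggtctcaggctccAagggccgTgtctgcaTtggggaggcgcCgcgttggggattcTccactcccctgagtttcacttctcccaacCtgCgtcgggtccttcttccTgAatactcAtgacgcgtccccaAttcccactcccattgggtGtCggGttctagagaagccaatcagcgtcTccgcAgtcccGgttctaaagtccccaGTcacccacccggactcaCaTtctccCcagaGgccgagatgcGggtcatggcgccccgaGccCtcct
H2AC18 (chr1:149842701-149843000, minus strand) and H2AC19 (chr1:149850811-149851110, plus strand) are near-identical histone genes on opposite strands, with an identity of 99.3% that is short of full only because the annotated starts lie 1 base apart, as the capitals mark.
H2AC18: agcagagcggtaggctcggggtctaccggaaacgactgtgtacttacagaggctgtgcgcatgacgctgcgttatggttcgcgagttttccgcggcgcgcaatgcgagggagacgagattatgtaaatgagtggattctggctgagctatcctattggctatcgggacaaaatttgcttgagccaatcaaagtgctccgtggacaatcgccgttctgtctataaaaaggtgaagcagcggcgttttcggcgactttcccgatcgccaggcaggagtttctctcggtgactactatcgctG
H2AC19: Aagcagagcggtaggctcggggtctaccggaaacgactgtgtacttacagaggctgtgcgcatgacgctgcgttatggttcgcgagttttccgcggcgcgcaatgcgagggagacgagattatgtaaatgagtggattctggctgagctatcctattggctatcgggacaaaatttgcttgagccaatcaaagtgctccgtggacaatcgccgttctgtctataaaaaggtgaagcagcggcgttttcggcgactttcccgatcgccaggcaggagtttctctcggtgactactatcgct
The motif occurred in 996 of 27303 promoters of that length (3.65%) and in 59 of the 1469 promoters found for genes of shared probe sets (4.02%). These shares lie close together. Of the windows shown, those of HLA-B, HLA-C, H2AC18 and H2AC19 held no match to the motif. The promoters of OAS2, USP18, APOL1 and APOL2 were not among those found. Among probe sets with 2 identifiers whose promoters were both found, the median identity was 72.3% over 151 sets of genes named alike, against 50% over 75 sets of neighbouring genes and 50.7% over 102 read-through sets. An identity near 50% is what the alignment returned for most sets of neighbouring genes, and 47 of the 151 sets named alike reached 90%. The windows of LMNB1 and PCIF1, which share the probe set that fell most, were 50.1% identical.

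CPVL itself had log2 values of 7.38, 7.25 and 7.21 on the shCPVL arrays, against 8.24, 8.39 and 8.18 on the shCtrl arrays, so the groups did not overlap. Its log2 difference was -0.99 (SE 0.074, limma adjusted p = 5.93e-05), which left 50.5% of the shCtrl level, while the exact permutation test of the 6 values alone gave p = 0.1, and no smaller p can come from 3 values a group. Array medians lay between 6.85 and 6.87. Arrays correlated at 0.9974 to 0.9986 within groups and at 0.9918 to 0.993 between groups. The 18 hybridisation control probe sets were higher on the shCPVL arrays by 0.31 on average on the log2 scale (0.16 to 0.41), and their part in the results was not tested. Of 8 astroglial and glioma markers 7 lay above the mean of the 23 background probe sets (4.93), AQP4 being the exception, and of these GFAP (log2 difference -1.01), FABP7 (-0.68) and SLC1A3 (-0.56) were lower in shCPVL at limma adjusted p = 3.05e-05, 4.88e-05 and 0.00135. Markers of other cell types also lay above that mean. They were 3 of 4 microglial ones (3.37 to 6.38 in shCPVL and 3.41 to 6.39 in shCtrl, PTPRC being below it), 3 of 3 endothelial (6.72 to 8.32 and 6.70 to 8.37 in the same order), 2 of 3 epithelial (3.22 to 6.56 and 3.35 to 6.48, EPCAM being below it) and 3 of 3 neuronal (6.87 to 7.56 and 6.88 to 7.27). The neuronal synaptic vesicle gene SYT1 was higher in shCPVL by 0.48 (limma adjusted p = 0.00374), and the other markers of those cell types were not called. The part of these markers in the results was not tested. In whole-culture RNA, fewer cells of a kind and less RNA per cell cannot be told apart.

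The shared probe sets carried 1249 distinct sets of identifiers and 2736 identifiers in all, of which 2529 had a symbol. For 1795 identifiers the array held no probe set of the gene's own, so a shared probe set was its sole measurement, and 963 of those were protein-coding genes and 355 were pseudogenes. Most shared probe sets had 2 identifiers (1519), 358 had 3 to 5 and 117 had 6 or more, up to 27. Probe sets ending in s_at or x_at made up 63.5% of the shared probe sets, against 27.8% of the single-identifier ones. By the alignments of the authors' deposited table, 27.5% of the shared probe sets aligned to more than 1 place, against 1.27% of the single-identifier ones. The identifiers fell into 7 classes, which were genes named alike (647 probe sets, symbols that share their first 3 characters or their letter stem, mostly paralogues), a gene with a pseudogene (437), read-through pairs (309), neighbours that overlap or lie within 10000 bases (202), other named pairs (179), sets with under 2 named identifiers (164) and hosts with a small RNA (56).

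The level of a probe set depends on its probes as well as on the RNA, so levels serve here only to show how far each class lay from background. The background probe sets had a mean of 4.93 but medians of 3.55 in shCPVL and 3.59 in shCtrl. A value below that mean can thus still exceed most background values. Genes named alike had a median log2 value of 5.76 in shCPVL and 5.73 in shCtrl, and 38.2% of their probe sets were under the background mean of 4.93. Read-through probe sets had medians of 7.57 in shCPVL and 7.62 in shCtrl, and 9.39% were under it. Pseudogene-bearing sets (6.99 in shCPVL, 6.92 in shCtrl), neighbours (7.43 and 7.48 in the same order) and small RNA hosts (7.04 and 7.09) lay between or near these, and over all probe sets 20.9% were below the background mean. The medians of a class differed between the groups by less than 0.1 in each of the 7 classes.

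**Figure D1:**
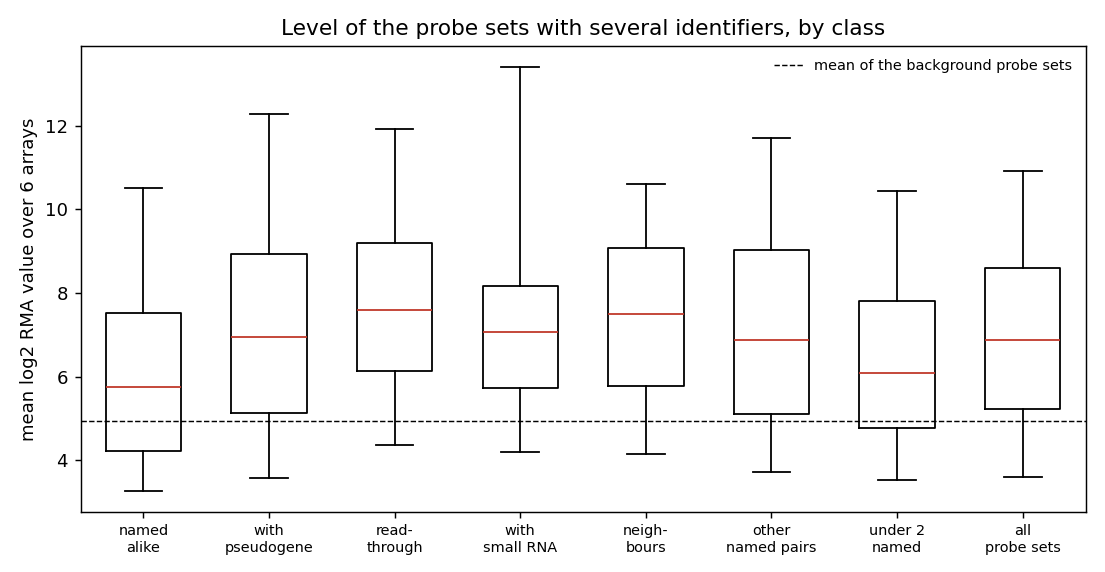
Mean log2 RMA value over the 6 arrays for the shared probe sets of each class and for all probe sets. Boxes span the quartiles with the median in red, whiskers reach the 5th and 95th percentiles, and the dashed line is the mean of the background probe sets (4.93). The box of genes named alike is the lowest, with 38.2% of its probe sets below the line.

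Of the 1994 shared probe sets, 155 were higher and 146 lower in shCPVL at a limma adjusted p under 0.05 (Benjamini-Hochberg over all 49293 probe sets tested). That is 7.77% higher and 7.32% lower, beside 7.93% and 10.6% over all probe sets, or 15.1% in either direction beside 18.5%. With a fold of at least 1.5 as well, 19 were higher and 11 lower, beside 1.2% and 1.3% of all probe sets. Without the probe sets that end in s_at or x_at, 2 higher and 5 lower calls of that size were left. The median log2 difference was -0.004 over the shared probe sets and -0.009 over all probe sets. Groups did not overlap for 631 (31.6%), beside 35% of all probe sets. These shares are near or below the background, so the shared probe sets as a whole did not stand out by their number of calls. Leaving out 1 array, which also lowers the residual degrees of freedom, moved these counts. The higher count was 83 without shCtrl 1, 84 without shCPVL 2 and 103 without shCPVL 1, and the lower count was 86 without shCtrl 1 and 81 without shCPVL 2.

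The classes differed in which changes were large. Genes named alike gave 38 higher and 37 lower calls (11.6% of 647, beside 18.5% over all probe sets). In the other classes 15.2% to 19.6% were called, near the share over all. Yet 14 of the 19 rises of at least 1.5-fold came from genes named alike, and none of the 11 such falls. Those 14 made up 2.16% of the class, beside 1.2% such rises and 1.3% such falls over all probe sets. Neighbours gave 17 higher and 16 lower calls (16.3%), with 1 rise and 5 falls of that size. Pseudogene-bearing sets gave 46 higher and 26 lower calls (16.5%), and 1 of these, a rise, reached 1.5-fold. Read-through sets gave 23 higher and 30 lower calls (17.2%) with 2 such rises, other named pairs 18 and 14 (17.9%) with 2 such falls, sets with under 2 named identifiers 8 and 17 (15.2%) with 4 such falls, and small RNA hosts 5 and 6 (19.6%) with 1 such rise. Without shCtrl 1 the calls in either direction numbered 37 among genes named alike, 39 among pseudogene-bearing sets, 31 among read-through sets, 19 among other named pairs, 15 among sets with under 2 named and 6 among small RNA hosts. Without shCPVL 2 they numbered 35, 37, 33, 18, 13 and 7 in the same order of classes, and without shCtrl 2 the small RNA hosts gave 7. By number of identifiers, 16% of the probe sets with 2 and 9.78% of those with 3 to 5 were called. With 6 or more, 19.7% were called, near the 18.5% over all probe sets. Of these, 18 were higher and 5 lower (15.4% and 4.27%, beside 7.93% and 10.6% over all).

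**Figure D2:**
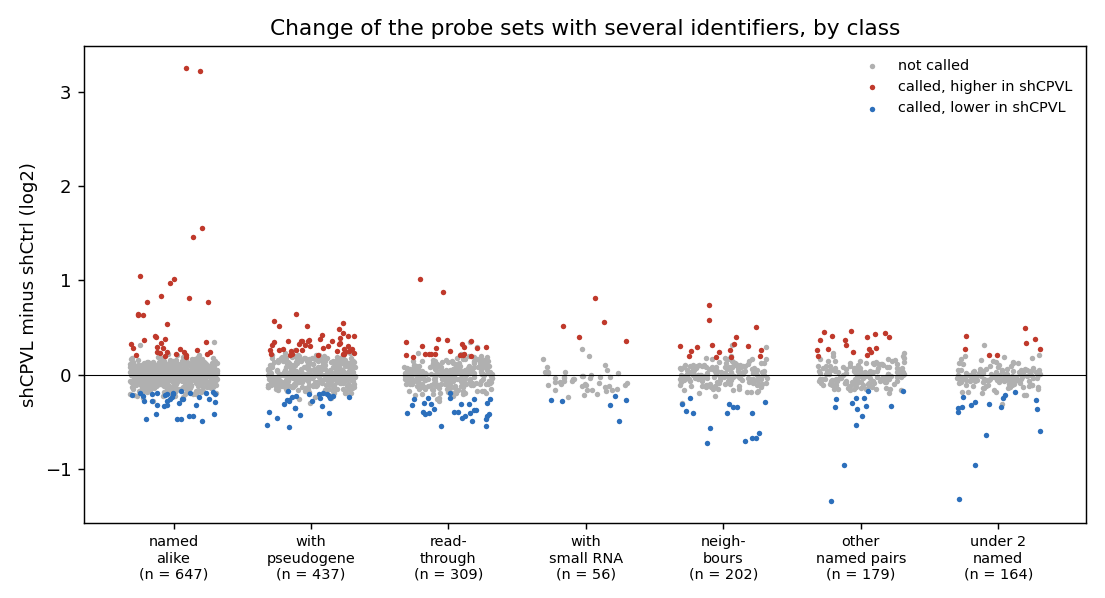
Log2 difference, shCPVL minus shCtrl, of each of the 1994 shared probe sets by class, coloured by the limma call (adjusted p under 0.05), with random sideways spread. Of the 7 points above 1, 6 are genes named alike, and the falls beyond -0.6 sit among neighbours, other named pairs and sets with under 2 named identifiers.

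The 3 highest rises belonged to genes of the antiviral interferon response. Of 16 shared probe sets with an interferon-stimulated symbol, 8 rose and 1 fell (50% and 6.25%, beside 7.93% and 10.6% over all probe sets), and their median log2 difference was 0.22, beside -0.009 over all probe sets. The list was drawn with earlier results of these data known, so its count is no independent evidence of its direction. The 1 that fell, DDX47/APOLD1 (-0.26, adjusted p = 0.0108), was counted through the name APOLD1, which starts like the apolipoprotein L genes. OAS2 and OAS3, oligoadenylate synthetases that sense double-stranded RNA and switch on RNase L, shared 2 probe sets. The first had log2 values of 11.23, 11.12 and 11.11 on the shCPVL arrays, against 7.88, 7.90 and 8.02 on the shCtrl arrays, a difference of 3.22 (SE 0.061, adjusted p = 1.72e-08) or 9.32-fold. The second had 8.90, 8.75 and 8.68 in shCPVL, against 5.43, 5.68 and 5.45 in shCtrl, a difference of 3.25 (SE 0.085, adjusted p = 1.16e-07). Every shCPVL array lay above every shCtrl array by more than the spread within either group.

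USP18, the protease that removes the ubiquitin-like modifier ISG15 and damps interferon receptor signalling, was measured by a shared probe set of 7 identifiers that also names FAM247A. Its values were 9.75, 9.73 and 9.66 in shCPVL, against 8.10, 8.14 and 8.23 in shCtrl, a difference of 1.55 (SE 0.058, adjusted p = 8.47e-07). TRIM34, a ubiquitin ligase of the tripartite-motif family that restricts retroviruses, shares 2 probe sets with the read-through transcript TRIM6-TRIM34. The brighter had 7.37, 7.42 and 7.22 in shCPVL, against 6.17, 6.25 and 6.54 in shCtrl (difference 1.02, SE 0.10, adjusted p = 0.000265). The other had 5.76, 5.67 and 5.36 in shCPVL, against 4.63, 5.02 and 4.51 in shCtrl (difference 0.88, SE 0.143, adjusted p = 0.00349). Neither pair of groups overlapped, but the shCtrl mean of the dimmer probe set (4.72) lay below the background mean of 4.93, so its difference is not an exact measure of the change in RNA. APOL1/APOL2, apolipoproteins L, of which APOL1 is the trypanosome-killing serum factor, had 5.80, 5.85 and 5.91 in shCPVL, against 5.37, 5.24 and 5.04 in shCtrl (difference 0.63, SE 0.085, adjusted p = 0.00127). BTN3A2/BTN3A1, butyrophilins that present phosphoantigen signals to gamma-delta T cells, rose by 0.38 (adjusted p = 0.0125) and 0.29 (adjusted p = 0.0294) on their 2 probe sets. The APOBEC3, LGALS9 and SP140 probe sets of that list were not called, with differences between -0.10 and 0.14.

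HLA-B and HLA-C encode heavy chains of MHC class I, which display peptides to cytotoxic T cells, and their shared probe set had 6.67, 6.63 and 6.61 in shCPVL, against 4.997, 5.19 and 5.35 in shCtrl. The difference was 1.46 (SE 0.086, adjusted p = 1.52e-05), and the shCtrl values lay close to the background mean. It was the sole call among 11 shared MHC probe sets (9.09%, beside 18.5% over all probe sets), the others being class II sets and HLA-V. Of those 11, 8 lay below the background mean. The neighbours CASP1, which matures interleukin-1 beta, and CARD16, a CARD-only relative that interacts with it, shared a probe set at 7.18, 7.23 and 7.13 in shCPVL, against 6.52, 6.44 and 6.36 in shCtrl (difference 0.74, SE 0.060, adjusted p = 9.24e-05), the single rise of at least 1.5-fold among neighbours. Of 16 probe sets with an interferon or chemokine gene symbol 3 were called, all higher, a share of 18.8% that is close to the 18.5% over all probe sets. The first and second of those 3 also name TBC1D3 copies (0.41 and 0.26), and the third is CXCL5/GLYR1 (0.24, adjusted p = 0.0415), where GLYR1 is a nuclear chromatin reader and no chemokine. By the authors' deposited table the CXCL5/GLYR1 probe set aligned to 1 place, on chromosome 16, where GLYR1 lies. CXCL5 lies on chromosome 4, and which RNA the probes bound was not tested.

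**Figure D3:**
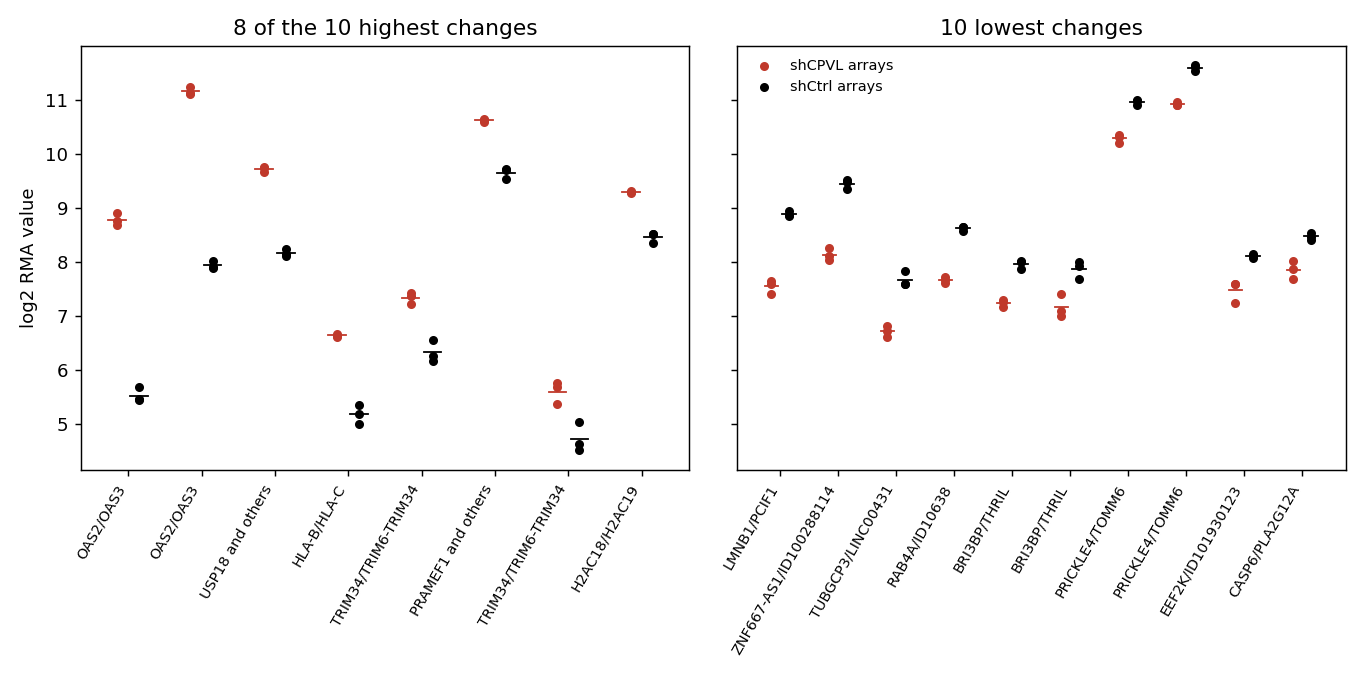
Log2 RMA values on each array for 8 of the 10 highest (left) and the 10 lowest (right) shared probe sets among those called with groups that do not overlap, shCPVL in red to the left of shCtrl in black, with group means as bars. By that selection the 3 red points lie wholly above or wholly below the 3 black points in every panel position. The widest gap is that of OAS2/OAS3.

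Of 15 shared histone probe sets 3 were called (20%, close to the 18.5% over all probe sets). All 3 were higher in shCPVL, and all 3 name replication-dependent histone genes that exist as near-identical pairs. H2AC18/H2AC19, which encode the same H2A protein, had 9.31, 9.28 and 9.28 in shCPVL, against 8.52, 8.51 and 8.34 in shCtrl on the first probe set (difference 0.83, SE 0.062, adjusted p = 5.98e-05). On the second the values were 9.93, 9.97 and 9.996 in shCPVL, against 9.13, 9.26 and 9.08 in shCtrl (difference 0.81, adjusted p = 6.34e-05). H4C14/H4C15, whose windows at the start were 100% identical, had 7.91, 7.99 and 7.98 in shCPVL, against 7.21, 7.30 and 7.06 in shCtrl (difference 0.77, SE 0.069, adjusted p = 0.000164). Of the 15 probe sets 6 lay below the background mean. The second H4C14/H4C15 probe set was not called and differed by -0.15.

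The list of families multiplied by segmental duplication gave 23 higher and 9 lower calls of 125 probe sets (25.6%, beside 18.5% over all). Its median difference was 0.08. That list also takes in symbols that start with FAM, duplicated or not, so its share is not one of duplicated families alone. USP18 is among the 23, through the FAM247 names. The largest of the 9 lower calls was LINC00869/FAM91A1 (-0.53, adjusted p = 0.000829). Another was FAM72C/FAM72B/FAM72D/FAM72A, which had 10.07, 9.98 and 9.998 in shCPVL, against 10.46, 10.54 and 10.38 in shCtrl (difference -0.44, adjusted p = 0.00149). The higher calls included copies of NBPF, NPIP, TBC1D3, ANKRD36 and SERF1, many of which multiplied in primates. NPIPA1 and 8 further identifiers had 8.54, 8.72 and 8.48 in shCPVL, against 8.15, 8.19 and 8.07 in shCtrl (difference 0.44, SE 0.072, adjusted p = 0.00344). Copied genes outside that list by their symbols were called in both directions, and those named here were chosen after their values were seen. GCSH, the H protein of the glycine cleavage system, fell with its copy LOC729080 on 3 of 3 probe sets (-0.27 to -0.25). CHRNA7, a nicotinic acetylcholine receptor subunit, and its partial copy CHRFAM7A fell on 2 of 4 (lowest -0.43), and DGCR6/DGCR6L with an unnamed identifier on 2 of 2 (-0.27 and -0.21). KMT2C, a histone methyltransferase, shares probe sets with BAGE copies that derive from it, and the highest of these had 8.89, 8.82 and 8.61 in shCPVL, against 8.15, 8.23 and 8.21 in shCtrl (difference 0.58, SE 0.076, adjusted p = 0.00117). RGPD5/RGPD8/RGPD6, relatives of the nuclear pore protein RANBP2, rose by 0.65 (adjusted p = 0.000148) on 1 of 2 probe sets, and the other, not called, differed by 0.11 at values below the background mean in both groups. PRAMEF1/PRAMEF2/PRAMEF13/PRAMEF14, relatives of the cancer-testis antigen PRAME, had 10.58, 10.64 and 10.63 in shCPVL, against 9.69, 9.53 and 9.72 in shCtrl (difference 0.97, SE 0.064, adjusted p = 3e-05). The list of other cancer-testis families held 43 probe sets, 27 of them below the background mean, and its 2 calls (4.65%, beside 18.5% over all probe sets) were rises, of GAGE1 and 8 further identifiers (0.64, adjusted p = 0.0197) and of SPANXB1 with an unnamed identifier (0.21, adjusted p = 0.0474). Both lay around or under background, GAGE1 at means of 5.12 in shCPVL and 4.49 in shCtrl and SPANXB1 at 4.91 in shCPVL and 4.70 in shCtrl.

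AKR1B10/AKR1B15, aldo-keto reductases that reduce aldehydes, had 4.999, 5.03 and 4.96 in shCPVL, against 4.20, 4.32 and 4.14 in shCtrl on 1 probe set (difference 0.78, SE 0.062, adjusted p = 8.76e-05), and rose by 0.40 on the other (adjusted p = 0.00209), the 2 calls among 9 aldo-keto and glutathione enzyme probe sets (22.2%, beside 18.5% over all). On the first of these the shCPVL mean (4.997) was close to the background mean of 4.93 and the shCtrl mean (4.22) was below it, so the difference is not an exact measure of the change in RNA. TRIM16/TRIM16L, a tripartite-motif gene and its like-named relative, rose by 0.64 (adjusted p = 0.000106) and 0.55 (adjusted p = 0.000305). These probe sets count as pseudogene-bearing by the gene types used here, and the first is the 1 rise of at least 1.5-fold in that class. None of 18 cytochrome P450, 14 UDP-glucuronosyltransferase or 44 olfactory receptor probe sets was called by limma, with 1, 1 and 3 of them at an unadjusted p under 0.05, and 12 of the 14 and 22 of the 44 lay below the background mean. The 5 probe sets of SLC2A3/SLC2A14, glucose transporters, were not called, with differences between -0.21 and 0.17, nor were the 4 of SOD2/SOD2-OT1 (-0.18 to 0.17) or the 2 of CYP51A1/LRRD1 (-0.15 and 0.04). SOD2 is the mitochondrial superoxide dismutase, and CYP51A1 acts in cholesterol synthesis.

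The 4 largest falls were those of LMNB1/PCIF1, ZNF667-AS1, TUBGCP3 and RAB4A. LMNB1, lamin B1 of the nuclear lamina, and PCIF1, which methylates the mRNA cap-adjacent adenosine, share a probe set with 7.64, 7.58 and 7.41 in shCPVL, against 8.86, 8.94 and 8.84 in shCtrl (difference -1.33, SE 0.071, adjusted p = 8.26e-06). TUBGCP3, a gamma-tubulin complex component that nucleates microtubules, shares a probe set with LINC00431 at 6.81, 6.72 and 6.603 in shCPVL, against 7.58, 7.84 and 7.59 in shCtrl (difference -0.96, SE 0.086, adjusted p = 0.000161). RAB4A, a small GTPase of recycling endosomes, shares a probe set with an identifier that has no symbol in the table used, at 7.72, 7.66 and 7.60 in shCPVL, against 8.64, 8.65 and 8.57 in shCtrl (difference -0.96, SE 0.056, adjusted p = 1.48e-05). On these 3 probe sets, picked by their size of fall, the shCPVL arrays lay wholly below the shCtrl arrays. By the authors' deposited table, the LMNB1/PCIF1 probe set aligned to 1 place, on chromosome 5. LMNB1 lies on that chromosome and PCIF1 on chromosome 20, and which RNA the probes bound was not tested. ZNF667-AS1, an antisense long non-coding RNA, shares a probe set with an unnamed identifier, at 8.25, 8.11 and 8.02 in shCPVL, against 9.48, 9.51 and 9.34 in shCtrl (difference -1.31, SE 0.075, adjusted p = 1.31e-05). The own probe set of that identifier changed by -0.25, and the shared one differed from it by -1.07 (adjusted p = 0.00125 over all pairs tested). That own probe set averaged 4.63, below the background mean of 4.93, so its change carries little information on the RNA. KIF4A/KIF4B, kinesins that bind mitotic chromosomes, had 9.78, 9.71 and 9.73 in shCPVL, against 10.23, 10.28 and 10.10 in shCtrl (difference -0.46, SE 0.063, adjusted p = 0.00134). It was the largest of the 3 calls, all falls, among 12 shared cell cycle probe sets (25% lower, beside 10.6% over all, and none higher, beside 7.93%), with CORT/CENPS-CORT (-0.30) and 1 of the 5 probe sets of the kinase pair CDK11B/CDK11A (-0.21). The other 4 of that pair were not called and differed by at most 0.15 in either direction. CORT/CENPS-CORT counts in the cell cycle list only through the letters CENP of the read-through's name. The KIF4A/KIF4B probe set aligned to 1 place by the authors' deposited table, on chromosome 5. KIF4B lies on that chromosome and KIF4A on X, and which RNA the probes bound was not tested. FANCD2/FANCD2P2, the Fanconi anaemia repair gene and a pseudogene, fell by 0.39 on the log2 scale (adjusted p = 0.0185).

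Neighbouring genes gave 5 of the 11 falls of at least 1.5-fold. BRI3BP and the long non-coding RNA THRIL share 2 such probe sets, the first at 7.26, 7.28 and 7.17 in shCPVL, against 7.87, 8.01 and 7.98 in shCtrl (difference -0.72, SE 0.061, adjusted p = 0.000123). TOMM6, a small subunit of the mitochondrial import pore, and its neighbour PRICKLE4, a relative of planar polarity proteins, share 2 more, the brighter at 10.97, 10.90 and 10.90 in shCPVL, against 11.60, 11.64 and 11.53 in shCtrl (difference -0.67, SE 0.055, adjusted p = 9.48e-05). CASP6, an executioner caspase, and PLA2G12A, a secreted phospholipase, share the fifth at 8.01, 7.86 and 7.69 in shCPVL, against 8.46, 8.54 and 8.41 in shCtrl (difference -0.62, SE 0.084, adjusted p = 0.0014). On none of these did the groups overlap, but they were picked by their size of fall, and 35% of all probe sets did not overlap either. EEF2K, the kinase that brakes elongation factor EEF2, shares 2 probe sets with an unnamed identifier, and both fell (-0.63, adjusted p = 0.00224, and -0.60, adjusted p = 0.000547). They lead the translation factor list, in which 6 of 27 probe sets fell (22.2%, beside 10.6% over all) and 2 rose (7.41%, beside 7.93%), with a median of -0.09. The other falls there included BLOC1S5/EEF1E1-BLOC1S5 on 2 probe sets, a gene of lysosome-related organelle biogenesis with a read-through. The rest were 2 of the 5 probe sets of EIF3C/EIF3CL (-0.23 and -0.19), an initiation factor subunit and its copy. EEF2K counts in that list only through the letters EEF, and BLOC1S5 only through EEF1E1 in the read-through's name. The share of falls is therefore not one of translation factors alone.

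Below the 2 probe sets of TRIM34, the highest rise of a read-through set was SCHIP1/IQCJ-SCHIP1 (0.38, adjusted p = 0.00214), and the lowest were CD302/LY75-CD302 and GNG10/DNAJC25-GNG10. CD302, a C-type lectin receptor, fell by 0.54 on the log2 scale (adjusted p = 0.000447) on 1 of 2 probe sets, and the other, not called, differed by -0.10. GNG10, a G protein gamma subunit, had 11.33, 11.17 and 11.14 in shCPVL, against 11.75, 11.78 and 11.73 in shCtrl (difference -0.54, SE 0.063, adjusted p = 0.000634). It counts in the heat shock list only through the letters DNAJ, as 1 of 3 falls and 1 rise among 18 (16.7% lower and 5.56% higher, beside 10.6% and 7.93% over all). The other falls there were HSPD1/HSPD1P5, the mitochondrial chaperonin and a pseudogene (-0.33, adjusted p = 0.00254), and HSP90AB1/HSP90AB3P (-0.22, adjusted p = 0.0149). Genes with pseudogenes also included AK4/AK4P1, a mitochondrial adenylate kinase, at 8.49, 8.57 and 8.54 in shCPVL, against 9.05, 9.23 and 8.98 in shCtrl (difference -0.55, SE 0.071, adjusted p = 0.00108). Of 48 ribosomal protein probe sets 4 were called, all lower (8.33%, beside 10.6% over all), and 3 of the 4 name a small RNA host, RPSA/SNORA62 (-0.48), RPSA/SNORA6 (-0.32) and RPL4/SNORD16 (-0.28), the last being RPS26 with an unnamed identifier (-0.34).

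**Figure D4:**
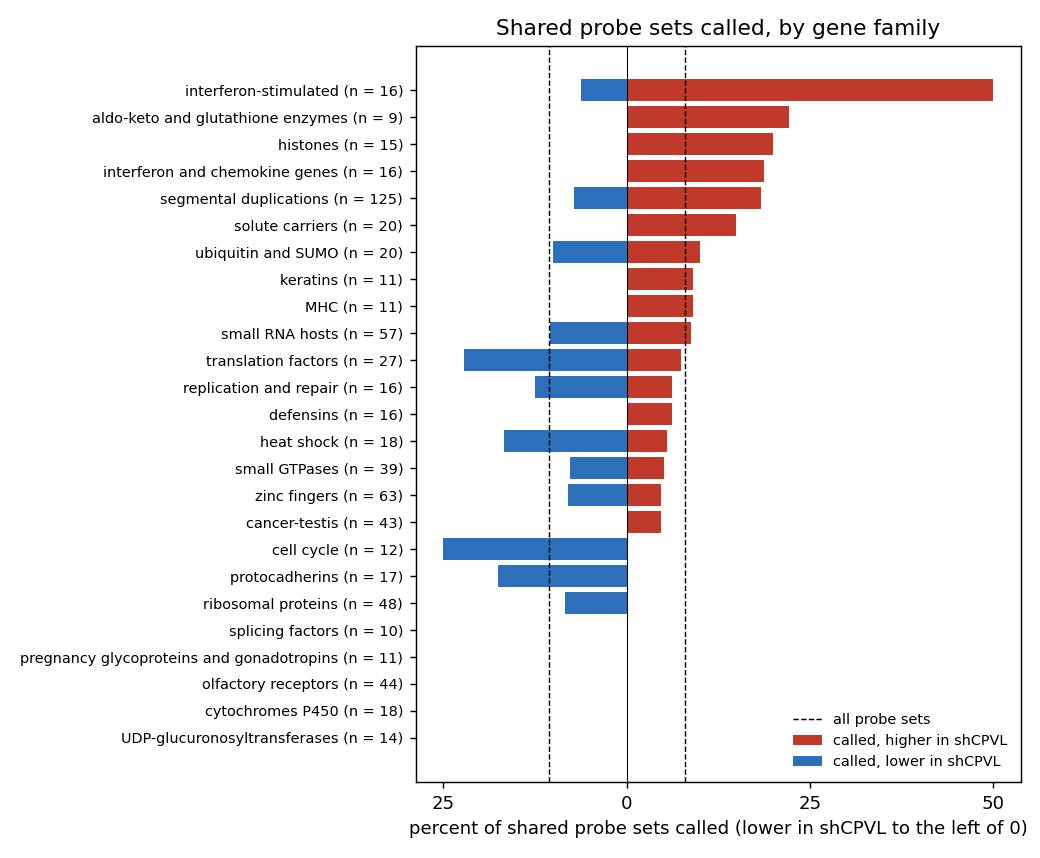
Percent of the shared probe sets of each gene family (families with at least 9 probe sets, by symbol) that were called higher (red, right of 0) or lower (blue, left of 0) in shCPVL, with the percent over all probe sets as dashed lines (7.93 higher, 10.6 lower). The interferon-stimulated bar reaches 50% to the right, and the cell cycle and translation factor bars are the longest to the left. Families go by the letters of a symbol, so some bars include genes of other function.

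At small RNA loci, 8 of 48 pairs of a shared probe set and its host's own probe set differed in change (16.7%, beside 7.04% of all 1776 such pairs tested). The highest of 5 rises was SNHG15/SNORA9, a non-coding host, at 6.46, 6.39 and 6.26 in shCPVL, against 5.51, 5.84 and 5.31 in shCtrl (difference 0.82, SE 0.124, adjusted p = 0.0024). EIF4A2, an initiation factor helicase, had an own probe set that rose by 0.33 (adjusted p = 0.00362), and its 2 probe sets with SNORA63 rose by 0.41 and 0.36. Its 2 probe sets with SNORA4 differed by -0.03 each, and their difference from the own probe set was -0.36 on both (adjusted p = 0.0291 and 0.0325 over all pairs tested). TAF1D, an RNA polymerase I cofactor, rose by 0.26 on its own probe set (adjusted p = 0.0194), while TAF1D/SNORA8 fell by 0.27 and TAF1D/SNORA18 by 0.26 on the log2 scale (both differences -0.52, adjusted p = 0.0097 and 0.0114). The 3 further TAF1D probe sets did not pass the test of the difference. TCP1, a chaperonin subunit, fell by 0.23 on its own probe set and TCP1/SNORA20 rose by 0.52 at values near background, 5.55, 5.21 and 4.89 in shCPVL, against 4.69, 4.79 and 4.597 in shCtrl (difference between the probe sets 0.75, adjusted p = 0.0281). SNHG12/SNORA44 rose by 0.56, where the own probe set of SNHG12 differed by 0.03 (difference 0.53, adjusted p = 0.0283). As background, the labelling kit primes from polyadenylated RNA, and mature small nucleolar RNAs lack a poly(A) tail.

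Where several probe sets carried the same identifiers, a call on 1 of them was often not shared by the rest. Of 418 such sets of identifiers (1163 probe sets), 315 had no call, 70 had only some probe sets called, 33 had every probe set called in the same direction, and none was called in both directions. The median range of the log2 difference within a set was 0.106. All 5 probe sets of PDE4DIP/PDE4DIPP2 rose (0.22 to 0.38). CBS/LOC102724560, cystathionine beta-synthase and a copy, rose on 5 of 6 (0.09 to 0.46), and RUNX1/LOC100506403, the transcription factor and an overlapping RNA, on 4 of 8 (-0.03 to 0.46). PRICKLE4/TOMM6 fell on 3 of 4, and the fourth (-0.12) averaged 4.95 in shCPVL and 5.07 in shCtrl, near background. Of the 5 probe sets of the gamma protocadherin cluster, 22 cell adhesion genes whose variable exons are spliced to common ones, 3 fell and all differed between -0.47 and -0.21. The own probe sets of PCDHGB5 (0.14), PCDHGB4 (0.09) and PCDHGA12 (0.08) were not called. The shared probe set that fell most differed from them by -0.60, -0.55 and -0.55 (adjusted p = 0.011, 0.0108 and 0.0097 over all pairs tested). A fall of all 22 genes was thus not shown.

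A shared probe set was set against the brightest own probe set of each of its genes, which gave 1776 pairs over 1166 shared probe sets and 941 genes, while 828 shared probe sets had no such partner. The test asked whether the log2 difference itself differed between the probe sets of a pair, and 125 pairs passed (7.04%). In 1344 pairs neither probe set was called, in 108 both were, of which 103 in the same direction and 5 in opposite directions, in 214 the shared one alone and in 110 the own one alone. Across the 1776 pairs the changes correlated at r = 0.551, a description only, since pairs share probe sets and arrays, and the median size of the difference was 0.104. By class the test passed for 16.7% of pairs with small RNA hosts, 10.1% with neighbours and 9.89% with other named pairs, against 3.66% with pseudogenes and 4.86% with read-through. The count of 125 was 21 without shCtrl 1, 59 without shCtrl 2, 70 without shCtrl 3, 72 without shCPVL 1, 31 without shCPVL 2 and 49 without shCPVL 3.

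Several shared probe sets changed as 1 of their genes did. LMNB1/PCIF1 (-1.33) lay within 0.16 of the LMNB1 probe set (-1.18; adjusted p of the difference 0.37) and apart from that of PCIF1 (-0.26; difference -1.07, SE 0.118, adjusted p = 0.00211). CTNNAL1/TMEM245, neighbours that encode an alpha-catulin and a membrane protein, rose by 0.40 to 0.58 on 3 probe sets, within 0.12 of TMEM245 (0.46) and apart from CTNNAL1 (-0.15; differences 0.55 to 0.73, adjusted p at most 0.0079). APOL1/APOL2 (0.63) lay near APOL2 (0.54; adjusted p = 0.524) and apart from APOL1 (0.08; difference 0.55, adjusted p = 0.0138). BTN3A2/BTN3A1 rose less than the BTN3A2 probe set did (0.90; differences -0.51 and -0.61, adjusted p = 0.0381 and 0.0246). HLA-B/HLA-C (1.46) differed little from both HLA-B (1.5; difference -0.04, SE 0.107) and HLA-C (1.43; difference 0.03, SE 0.106), and neither difference passed the test.

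**Figure D5:**
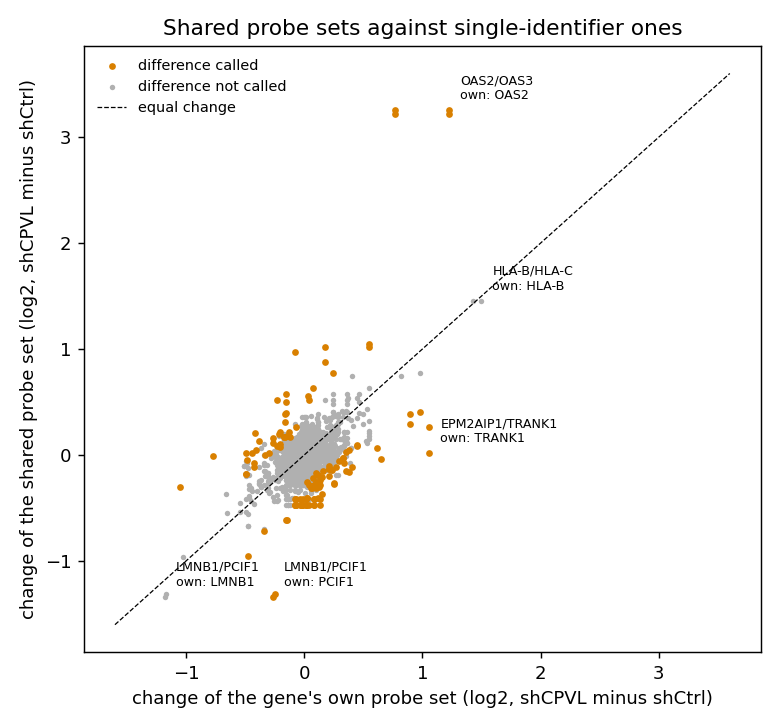
Log2 difference (shCPVL minus shCtrl) of each shared probe set against that of the gene's own probe set, 1776 pairs, with pairs whose difference passed the limma test (125) in orange. HLA-B/HLA-C lies on the dashed line of equal change, OAS2/OAS3 lies above it, and LMNB1/PCIF1 lies near the line for LMNB1 and far below it for PCIF1.

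OAS2/OAS3 rose more than the own probe sets it was paired with, by 2.49 and 2.45 over OAS3 (0.77) and by 2.03 and 1.99 over the brightest of OAS2 (1.23), with adjusted p at most 1.91e-05. The 5 own probe sets of OAS2 all rose, by 1.23 to 3.70, so the size of that difference depends on which of them is taken. TRIM34/TRIM6-TRIM34 rose by 0.84 and 0.70 more than the TRIM34 probe set (0.17, adjusted p = 0.0113 and 0.0283), and the PRAMEF probe set by 1.05 more than that of PRAMEF2 (-0.08, adjusted p = 0.000186). Both of those own probe sets averaged less than the background mean, at 4.09 for TRIM34 and 3.29 for PRAMEF2, so their own changes near 0 carry little information on the RNA. The TRIM34 average was above the background medians (3.55 in shCPVL, 3.59 in shCtrl), and the PRAMEF2 average was below them. EPM2AIP1/TRANK1 differed by 0.02 on 1 probe set, where TRANK1 alone rose by 1.06 (difference -1.04, SE 0.144, adjusted p = 0.00783). On the second probe set EPM2AIP1/TRANK1 rose by 0.26, again less than TRANK1 alone (difference -0.80, adjusted p = 0.0165). C4orf46 fell by 0.77 on the log2 scale where the bright probe set shared with TOMM7, a mitochondrial import subunit, differed by -0.01 (difference 0.77, adjusted p = 0.00135). RBM4/RBM14-RBM4, a splicing regulator, rose by 0.22 on 1 probe set and its own probe set fell by 0.20 on the log2 scale (difference 0.42, adjusted p = 0.0136), while its other probe set, not called, differed by 0.08. Among the 291 shared probe sets with exactly 2 identifiers, each with a probe set of its own, 47 were called, beside 18.5% over all probe sets. Both genes' own probe sets were called in that direction for 13 of these 47, exactly 1 for 16 and neither for 18.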

How the data were processed

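RNA of U251 cells was measured on 6 Affymetrix arrays. The authors deposited log2 expression values, and the submitters' processing notes name RMA (no version), which equalises the arrays, so each change is relative to the other probe sets of an array. The authors' deposited table gave Entrez identifiers, alignments, a log2 fold change, a linear fold (ratio), a fold score and a p-value with an FDR, per the file headers. Its genome build is not given in the sources used here, so its alignments were only counted or read for the chromosome.

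Symbols, loci and gene types came from a RefSeq table (GRCh38.p14) by Entrez identifier. That table has no descriptions, so a read-through was taken as a hyphenated symbol whose parts are both symbols, and antisense, divergent, intronic and overlapping transcript suffixes and LOC and LINC names did not count as named alike. Naming alike does not prove common descent. Members, classes, families (by symbol, 30 lists) and genes were chosen with earlier results of these data known. Probe sets were named by size of change (the 10 highest and lowest, 3 a direction per class, up to 3 per family), by brightness, for 4 chosen genes and for the 8 pairs with the greatest difference; other named ones were chosen after their values were seen. Some probe sets that this rule names are not reported here.

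limma 3.58.1 in R 4.3.3 (lmFit, eBayes, two-sided) was run on all 49293 probe sets other than the 102 array controls, with Benjamini-Hochberg adjustment over all of them. The pair test ran limma on the difference between the log2 values of the probe sets of a pair on each array, adjusted over 1776 pairs. Both were tested on simulated data. The number of arrays limits the precision. Alternatives were moderation, array weights, a minimum fold in the test, scaling, probe set filters, the replicate number as a block and leaving out each array.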

Additional observations from a re-analysis of the deposited data

How the results depend on the processing

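None of the 129 named probe sets and pairs reversed under those of the 18 alternatives in which it could be computed. Changes to moderation, the minimum fold, the probe set filters, the replicate block and the authors' deposited table keep the same difference of means, so they could not reverse it. A reversal was possible only with array weights, scaling, an array left out or the mean of all own probe sets. Centring, repeated quantile normalization, eBayes with a trend or robust, leaving out the dimmest 40%, the authors' deposited table and the mean of all own probe sets moved no count by over 1.5 times. Higher calls numbered 155, and 92 without moderation, 394 with array weights, 23 against a fold of 1.2, 44 without s_at and x_at probe sets, 101 with 1 probe set per set of identifiers and 83 to 138 leaving out 1 array. Lower calls numbered 146, and 449, 12 and 53 with weights, the fold test and without s_at and x_at, and 81 to 124 leaving out 1 array. Calls with a fold of at least 1.5 numbered 2 higher and 5 lower without s_at and x_at and 7 lower with 1 per set. With array weights the class counts were 248 (named alike), 208 (pseudogene), 136 (read-through), 85 (neighbours), 71 (other), 64 (under 2 named) and 31 (small RNA). In that order the fold test gave 13, 4, 4, 6, 3, 4 and 1, and leaving out s_at and x_at gave 9, 6, 30, 21, 14, 13 and 4. Without moderation other pairs gave 21, under 2 named 13 and small RNA 5, and with 1 per set genes named alike gave 45, read-through 29, neighbours 21 and other pairs 21. Leaving out 1 array gave 35 to 57, 37 to 58, 31 to 47, 22 to 33, 18 to 24, 13 to 19 and 6 to 12 in the order above, 21 to 72 called pairs, and 18 to 23 higher and 9 to 16 lower calls of 1.5-fold. The weights rested on shCtrl 1 (3.447) and shCPVL 2 (4.855); why single arrays move these counts was not tested.

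Replicate numbers were not used to pair the samples. Same-numbered arrays correlated in their deviations at -0.25, 0.09 and 0.22. The deviations of shCPVL 2 correlated best with those of shCtrl 2, while shCPVL 1 and shCPVL 3 correlated best with another number. With 3 arrays a group, these values cannot exclude that same-numbered arrays were handled together. The replicate block gave 122 higher and 111 lower calls and 93 pairs, and 9 of the 129 named results lost their call.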
